A study of Mus musculus with 2 samples.

Results

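Ubiquitylated histone H2A (uH2A) was measured by ChIP-Seq in mouse embryonic fibroblasts (MEFs) with and without Bmi1. The promoters described here are listed with the H3K4me3 mark and without the H3K27me3 mark, and their genes had the lowest expression in the wild-type line. The authors took both marks from peaks of an earlier study, and neither mark was measured here. They are labelled CpG-rich, which was not checked over the whole set. Members were taken from the supplied part of a gene table that gives each gene's chromatin class, strand, transcription start site (TSS) and expression group. They are the promoters of class H3K4me3 only in the lowest expression group, with an expression value of 41 or less in wild-type MEFs, after names beginning with Zfp, Zscan, Zkscan, Zbtb, Zfhx, Zik or Znf were left out. This gave 748 members among 1999 promoters supplied, out of 19542 in the whole table. The other promoters supplied were 562 of class H3K4me3 only in the next higher expression group, 53 zinc finger names of that class, and 636 of class H3K27me3 only. Promoters with both marks or with neither are thus absent from the supplied set. The 28 zinc finger names of the lowest expression group would have made 776. The table holds a single TSS for each gene, so a gene with several start sites is seen at only 1 of them. Expression was not measured here, and the low level rests on the table's grouping.

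The study compared Bmi1 WT and Bmi1 KO (null) C57BL/6 MEFs, isolated from littermates and immortalized with TBX2, as 1 line per genotype with no further treatment. Chromatin was cross-linked with formaldehyde, sonicated, digested with micrococcal nuclease and precipitated with the anti-uH2A antibody E6C5. Each genotype has 1 library, with 6114925 mapped tags in Bmi1 WT and 8020248 in Bmi1 null, where a tag is the 25 bp sequenced end of a fragment. With 1 library per genotype, a difference between the libraries has no replicate error, and differences in genotype, cell line and library cannot be told apart. Bmi1 WT values called scaled carry a factor of 1.31, Bmi1 null total over Bmi1 WT total, or 1.28 where each position and strand was counted once. The comparison asks how far uH2A at these promoters differs when Bmi1 is absent.

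Bmi1 is a subunit of Polycomb repressive complex 1, whose Ring1b subunit attaches ubiquitin to the tail of histone H2A, and Bmi1 stimulates that activity. H3K27me3 is placed by the other Polycomb complex, while H3K4me3 marks most CpG-rich promoters, whether or not their genes are strongly transcribed. The members therefore are promoters with low listed expression and not listed with the mark most often associated with Polycomb repression. They include housekeeping genes, such as those of cytosolic ribosomal proteins and the chaperones Hspa5 and Hsp90aa1, beside genes used mainly in the testis, the nervous system or muscle. Ribosomal protein and chaperone genes are usually broadly expressed, so for them the low-expression label rests on the table's array values alone, which were not analysed here.

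The promoters are described as CpG-rich, a property not used to choose the members here, so 7 members from both ends of the range of ratios are shown with each CpG in capitals. Sequences are from RefSeq, build GRCm38.p6, and cover the 250 bases before the annotated start on the gene's strand. Of the 748 members, 500 matched this promoter table by symbol and 96 by an older symbol. As the 596 matched members are 79.7% of the set, no comparison of base composition over the members was made. The start in this build may not be the TSS used for the tags, whose coordinates are in mm8. The first 4 genes were among those most in favour of Bmi1 WT within 1 kb of the TSS, and the last 3 among those most in favour of Bmi1 null.
2310035C23Rik: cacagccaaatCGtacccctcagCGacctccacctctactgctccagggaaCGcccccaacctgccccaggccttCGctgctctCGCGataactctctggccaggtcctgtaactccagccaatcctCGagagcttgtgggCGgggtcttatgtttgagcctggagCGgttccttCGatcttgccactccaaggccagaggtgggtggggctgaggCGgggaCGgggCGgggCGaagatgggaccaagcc
Gmfb: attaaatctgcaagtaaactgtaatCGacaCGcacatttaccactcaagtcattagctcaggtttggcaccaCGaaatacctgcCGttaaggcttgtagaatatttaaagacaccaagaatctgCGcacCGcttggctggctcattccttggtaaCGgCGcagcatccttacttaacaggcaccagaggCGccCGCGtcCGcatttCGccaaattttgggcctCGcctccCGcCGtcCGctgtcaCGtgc
Plek2: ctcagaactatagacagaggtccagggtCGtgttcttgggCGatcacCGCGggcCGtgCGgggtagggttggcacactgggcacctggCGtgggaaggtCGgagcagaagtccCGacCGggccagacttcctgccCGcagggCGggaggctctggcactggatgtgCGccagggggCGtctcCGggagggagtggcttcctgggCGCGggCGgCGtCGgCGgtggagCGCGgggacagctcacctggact
Cdk2: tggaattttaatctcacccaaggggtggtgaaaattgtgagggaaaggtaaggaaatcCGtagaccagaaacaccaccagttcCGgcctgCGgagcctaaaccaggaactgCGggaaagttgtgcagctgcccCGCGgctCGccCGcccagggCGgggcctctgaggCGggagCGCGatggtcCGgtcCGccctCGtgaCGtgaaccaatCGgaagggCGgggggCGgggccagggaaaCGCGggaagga
Rbm5: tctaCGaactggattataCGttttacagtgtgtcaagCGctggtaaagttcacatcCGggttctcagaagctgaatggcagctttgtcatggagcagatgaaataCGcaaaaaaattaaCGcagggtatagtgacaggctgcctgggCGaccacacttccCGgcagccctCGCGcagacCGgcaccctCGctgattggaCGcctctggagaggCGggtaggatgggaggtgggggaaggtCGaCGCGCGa
Prkag3: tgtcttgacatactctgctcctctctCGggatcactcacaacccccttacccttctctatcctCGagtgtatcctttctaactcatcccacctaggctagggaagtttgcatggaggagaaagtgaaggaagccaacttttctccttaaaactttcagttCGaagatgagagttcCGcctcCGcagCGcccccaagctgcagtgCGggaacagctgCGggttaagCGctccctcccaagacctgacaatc
Stx18: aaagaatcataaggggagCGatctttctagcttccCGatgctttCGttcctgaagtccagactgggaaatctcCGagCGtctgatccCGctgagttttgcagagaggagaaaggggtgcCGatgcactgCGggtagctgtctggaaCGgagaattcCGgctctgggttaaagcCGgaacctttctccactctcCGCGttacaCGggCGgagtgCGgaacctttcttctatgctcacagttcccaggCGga

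The first promoter is that of Relch, the current name of 2310035C23Rik, at chr1:105663611-105663860 on the plus strand. Those of Gmfb (chr14:46822243-46822492), Plek2 (chr12:78906939-78907188), Cdk2 (chr10:128705052-128705301), Rbm5 (chr9:107771003-107771252) and Prkag3 (chr1:74748956-74749205) are on the minus strand, and that of Stx18 (chr5:38038980-38039229) is on the plus strand. The printed stretches hold 14, 18, 23, 21, 18, 9 and 17 CpG in the order shown, against a median of 6 in the same stretch of all 32851 promoters in the table and quartiles of 2 and 16. Prkag3 was therefore the only printed promoter below that upper quartile besides 2310035C23Rik. The GC box GGGCGG, searched on both strands, was present in 2310035C23Rik, Plek2, Cdk2 and Stx18 and in 32.7% of all promoters. CCAAT was present in 2310035C23Rik, Cdk2 and Rbm5 and in 33.9% of all promoters, and TATAAA in none of the 7 and in 12.4% of all. GGGCGG contains a CpG and so overlaps the capitals. These matches describe the printed letters only.

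uH2A tags were most frequent at the TSS of the members in both libraries, and the peak was higher in Bmi1 WT. In the first 200 bp of the gene, called the TSS bin, scaled Bmi1 WT had 2.51 tags per promoter (95% Poisson interval 2.39 to 2.65) and Bmi1 null had 1.66 (1.57 to 1.76). From 3 to 5 kb on either side the levels were 0.797 and 0.764 tags per bin. The TSS bin thus stood 3.15 times above the flanks in Bmi1 WT and 2.18 times in Bmi1 null, so a rise at the TSS was present in both libraries. Intervals cover counting error only, and repeated tags from PCR are not independent molecules.

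The mean difference, scaled Bmi1 WT minus Bmi1 null, was 0.850 ± 0.113 tags in the TSS bin, where ± is the s.e.m. across the 748 genes and not a replicate error. Over the 10 bins within 1 kb it was 0.399 ± 0.0321 per bin, and from 0.6 to 2.0 kb inside the gene it was 0.167 ± 0.0318. Beyond 3 kb it was 0.0331 ± 0.0194, with a 95% interval of -0.00502 to 0.0712 that holds 0. Scaling by the tags within the same 1 Mb turned this last value to -0.0455 and lowered that from 0.6 to 2.0 kb to 0.0892. Bins more than 2 s.e.m. above that flank level ran without a gap from -0.4 to 1.2 kb, the bins at 1.6 and 1.8 kb also passed, and none beyond 3 kb did. Upstream of the TSS, from 1 to 3 kb, the difference was 0.00517 ± 0.0256, and downstream over the same distance it was 0.0777 ± 0.0253. The downstream value had a median across genes of -0.00652 and was 0.0291 ± 0.0142 with 1 tag per position. The gap between the sides was not tested.

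**Figure D1:**
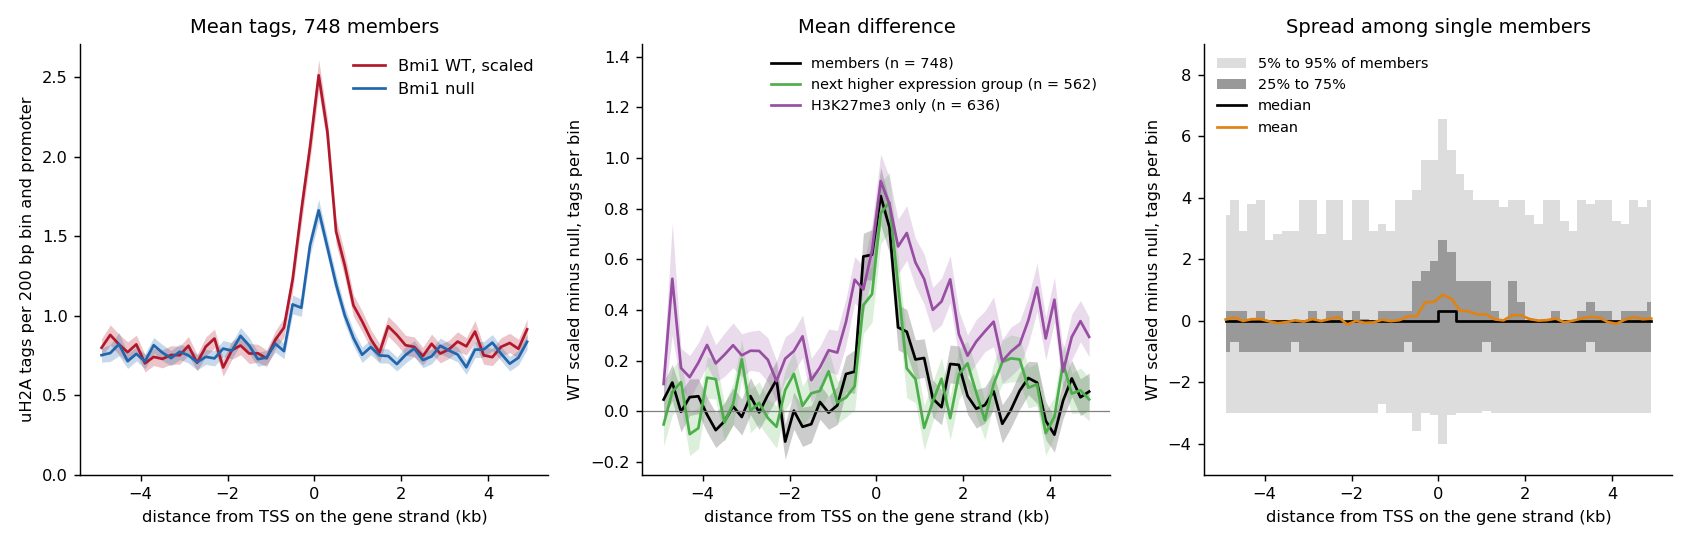
Left, mean uH2A tags per 200 bp bin and promoter (y) against distance from the TSS in kb (x) for the 748 members, with scaled Bmi1 WT in red, Bmi1 null in blue and bands of 1 s.e.m. across genes; middle, mean difference of the members, of the next higher expression group and of H3K27me3-only promoters, with the same bands; right, the 5% to 95% and 25% to 75% ranges, the median and the mean of single members. Both libraries peak at the TSS, at 2.51 and 1.66 tags, and the ranges of single members reach below 0 in every bin.

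The same shape was present when each position and strand was counted once. The TSS bin then had 1.85 scaled Bmi1 WT tags and 1.32 Bmi1 null tags, a difference of 0.525 ± 0.0768. Within 1 kb the difference was 0.260 ± 0.0207, from 0.6 to 2.0 kb 0.0902 ± 0.0186 and beyond 3 kb 0.0123 ± 0.0108. The run of bins above the flanks again went from -0.4 to 1.2 kb, and the bins at -0.8 and 1.8 kb passed outside it. Repeats made up 26.3% of the Bmi1 WT tags and 25.6% of the Bmi1 null tags within 1 kb of the members, against 33.0% and 34.5% of the whole libraries.

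At single members the difference was small beside its spread. In the TSS bin the median member had a difference of 0.312 tags, the quartiles were -1 and 2.62, and 5% of members lay below -4 and 5% above 6.56. Scaled Bmi1 WT was higher there at 396 members (52.9%) and lower at 261 (34.9%), and 12.2% of members had no tag of either library in this bin. In the first bin 5 kb upstream the shares were 26.5% higher, 28.9% lower and 44.7% without a tag. Within 1 kb, scaled Bmi1 WT was higher at 499 members and lower at 249. The summed difference within 1 kb was 2982 tags, made of 4180 from members above 0 and -1198 from members below 0. The 75 members with the largest differences held 1585 of those 2982 tags and 37.9% of the positive sum, and the mean per bin without them was 0.208. As these 75 were chosen by the same difference, a lower mean without them was fixed in advance. Leaving out the highest and the lowest 5% of members gave 0.369 per bin. Within 1 kb a large minority of members thus had a difference below 0, and how many do depends on the scaling. The exact interval of the ratio, which covers counting error only, lay below 1 at 16 members and above 1 at 120. With 1 tag per position and strand these numbers were 3 and 64. For most of the 249 members below 0, a lower level in Bmi1 WT was therefore not separated from counting error.

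Depth limits what can be said of a single promoter. The median member had 11 Bmi1 WT tags within 1 kb (quartiles 7 and 15, highest 47) and 11 Bmi1 null tags (quartiles 7 and 15, highest 39). Before scaling, 358 members had more Bmi1 WT tags, 348 had more Bmi1 null tags and 42 had as many of each. Among the 697 members with at least 10 tags in both libraries together, the median log2 ratio was 0.39 (exact 95% interval 0.30 to 0.49, from ranks of genes), with quartiles of -0.17 and 1.03. That median equals the log2 of the scaling factor, 0.39, because the median member had equal raw tags in the libraries. Counting each position and strand once gave a median of 0.36 among 658 members, again the log2 of the scaling factor for such tags, 0.36. Whether the median member was higher in Bmi1 WT in this window therefore rests on the scaling. Within 500 bp the median was 0.55, and among members with at least 20 tags within 1 kb it was 0.47, both above the log2 of the factor. The half-widths of their exact 95% intervals were 0.16 and 0.080, so neither was clearly apart from it. Beyond 3 kb the scaled ratio over all members was 1.04 (1.015 to 1.07 from counting error alone, which is narrower than the spread across genes given above), or 1.02 (0.990 to 1.06) with 1 tag per position. Scaling by the members' own tags there, chosen after seeing the data, gave a median of 0.33.

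Of the 697 members with at least 10 tags, 192 (27.5%) were higher in Bmi1 WT by 2-fold or more, against 27.9% of the 1903 promoters tested among those supplied, members included. A 2-fold or larger ratio in favour of Bmi1 null was found at 53 members (7.6%), against 6.94% of all promoters tested. The 95% Clopper-Pearson interval of the scaled ratio lay above 1 at 120 of the 748 members (16%), against 16.7% of all 1999 promoters, and below 1 at 16 members (2.14%), against 1.8%. These shares were close to those of all promoters supplied, of which the members are a large part. The supplied set holds only promoters of class H3K4me3 only or H3K27me3 only, so these shares give no comparison with promoters in general. Scaling by the tags within the same 1 Mb put the interval below 1 at 29 members. Among H3K27me3-only promoters 31.9% were higher in Bmi1 WT and 4.19% in Bmi1 null by 2-fold, and 20.4% had an interval above 1 and 0.786% below 1. The dispersion of the ratio among members, the Pearson chi-square of their tags divided by its degrees of freedom, was 2.11, where 1 is counting error alone.

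The spread was smaller when repeated tags were set aside, although fewer tags per gene also lower this dispersion. With 1 tag per position and strand the dispersion was 1.24, 138 of 658 members (21%) were higher in Bmi1 WT by 2-fold and 28 (4.26%) higher in Bmi1 null, against 22.6% and 4.45% of all promoters tested that way. Intervals above 1 were found at 64 members (8.56%) and below 1 at 3 (0.401%), against 7.65% and 0.45% of all promoters supplied. The H3K27me3-only shares in this count were 27.1% and 3.28% by 2-fold, and 8.96% and 0.314% by interval. The 59 members with an interval above 1 in both counts were 49.2% of the first list and 92.2% of the second. The 3 members below 1 in both counts were 18.8% of the 16 below 1 with all tags. They were Rbm5, Cdc23 and Ksr1, a scaffold of the MAP kinase cascade that was named after its values were seen, with 7 Bmi1 WT and 24 Bmi1 null tags (ratio 0.383, 0.139 to 0.915). Tags on the gene strand and tags on the opposite strand gave log2 ratios with a Spearman's rho of 0.21 across the 697 members (0.19 across 658 with 1 tag per position). These strands share the libraries and are not replicates.

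**Figure D2:**
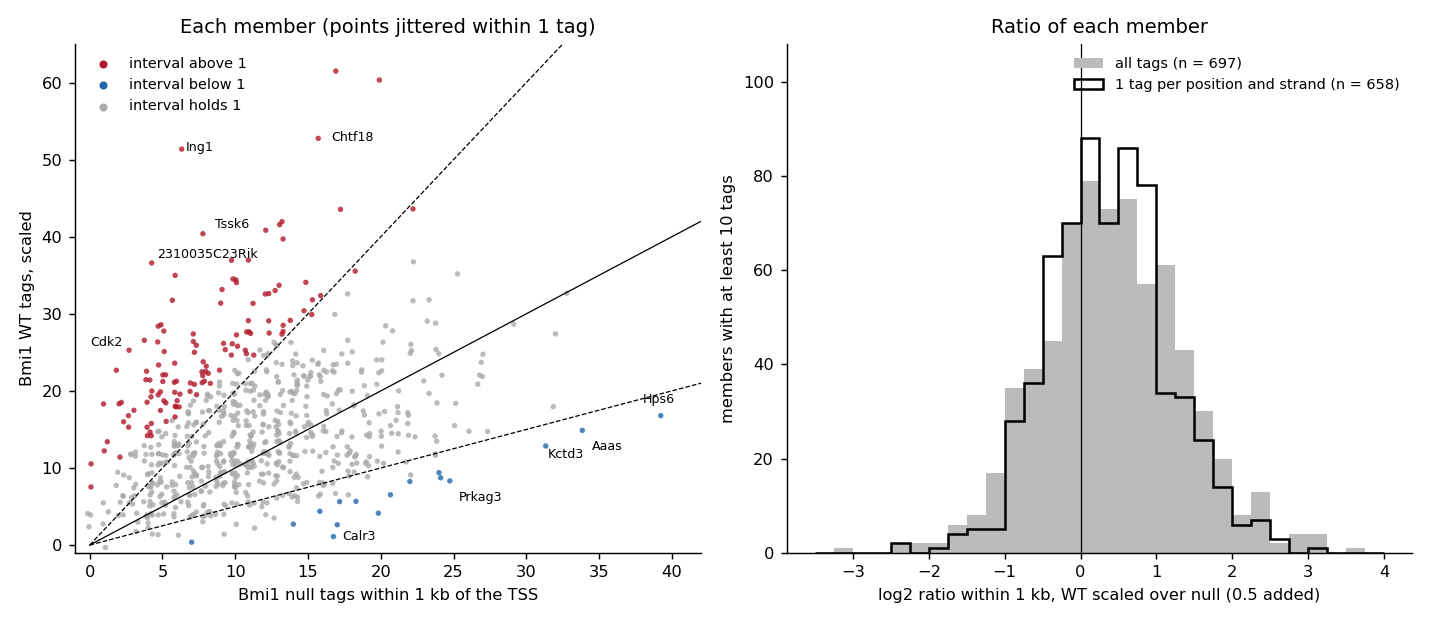
Left, scaled Bmi1 WT tags (y) against Bmi1 null tags (x) within 1 kb of the TSS of each of the 748 members, with lines at equality (solid) and 2-fold (dashed) and colours for intervals of the ratio above 1 (red, 120) and below 1 (blue, 16). Right, number of members (y) by log2 ratio (x), for all tags (grey, 697) and 1 tag per position and strand (line, 658); the distribution is narrower in the second count.

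The members with the firmest excess in Bmi1 WT were Ing1, 2310035C23Rik, Gmfb, Plek2, Cdk2, Dedd2, Tssk6 and 2610110G12Rik, ordered by the lower bound of the interval. Ing1, which encodes a reader of H3K4me3 in Sin3 deacetylase complexes, had 39 Bmi1 WT and 6 Bmi1 null tags within 1 kb, a scaled ratio of 8.53 (3.58 to 24.6). At 2310035C23Rik the tags were 28 and 4, with a ratio of 9.18 (3.21 to 36.0). Cdk2, the cyclin-dependent kinase of S phase entry, had 19 and 3 (ratio 8.31, 2.45 to 43.8). Each of these 3 kept an interval above 1 with 1 tag per position and strand, with lower bounds of 2.30, 2.40 and 1.53. Tssk6, a kinase of the testis, had 31 and 8 tags, and Dedd2, a death effector domain protein, had 27 and 6. Gmfb, a factor that prunes branched actin networks, had 14 and 1, and Plek2, a pleckstrin relative, had 17 and 2. At these members counts under 10 in Bmi1 null leave wide intervals, such as 2.79 to 776 at Gmfb. 2610110G12Rik had 8 Bmi1 WT tags and 0 Bmi1 null tags, so that only the lower bound of 2.24 can be given.

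In the other direction stood Calr3, Cdc23, Rbm5, Prkag3, Stx18, Hps6, Ncam1 and Aaas. Calr3, a calreticulin of the testis, had 1 Bmi1 WT and 17 Bmi1 null tags, a ratio of 0.0772 (0.00185 to 0.492). Those 17 tags lay at 8 positions, and with each counted once the interval reached 1.20. Rbm5, an RNA-binding splicing factor, had 3 and 20 tags (ratio 0.197, 0.0374 to 0.663), and Cdc23, a subunit of the anaphase-promoting complex, had 2 and 17 (0.154, 0.0173 to 0.650). Rbm5 and Cdc23 kept an interval below 1 with 1 tag per position, with upper bounds of 0.735 and 0.960. Ncam1, a neural cell adhesion molecule, had 5 and 21 tags, Stx18, a SNARE of the endoplasmic reticulum, had 2 and 14, and Prkag3, an AMP-activated kinase subunit of skeletal muscle, had 6 and 25. Hps6 and Aaas, which act in lysosome-related organelles and the nuclear pore, had 13 and 39 and 11 and 34. In the single count the upper bounds of Calr3, Prkag3, Stx18, Hps6, Ncam1 and Aaas lay between 1.08 and 1.38.

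Ordered by the tags of each library in the TSS bin, a different measure from the interval of the ratio, the list included Ing1 again. Most Bmi1 WT tags were found there at Chtf18, a clamp loader subunit, with 11 against 3 in Bmi1 null, then Abat, which breaks down the transmitter GABA (10 and 2), Ercc6 (10 and 5), Ing1 (10 and 1) and the membrane protein gene Tmem180 (10 and 1). With each position counted once, the Bmi1 WT tags of this bin were 4 at Chtf18, 8 at Abat, 5 at Ercc6, 5 at Ing1 and 7 at Tmem180, so Chtf18 was no longer first. Within 1 kb the ratio was 1.64 (0.716 to 3.84) at Ercc6, a factor of transcription-coupled repair, and 1.55 (0.641 to 3.82) at Tmem180, and both intervals hold 1. At Chtf18 it was 3.28 (1.80 to 6.27) and at Abat 2.12 (1.01 to 4.61), both above 1. With each position counted once these intervals were 1.065 to 5.39 at Chtf18 and 0.733 to 4.91 at Abat. Most Bmi1 null tags were found at the histone deacetylase gene Hdac2 and at Rpn1, of the oligosaccharyltransferase, with 11 each against 2 and 1 in Bmi1 WT. Tert followed with 10 and 0, and Wrb, which acts in membrane insertion of tail-anchored proteins, with 9 and 3. Over the promoter Tert, the telomerase catalytic subunit, had 10 Bmi1 WT and 13 Bmi1 null tags, a ratio of 1.01 (0.396 to 2.49). Hdac2 had 16 and 19 (1.10, 0.531 to 2.27), Rpn1 16 and 20 (1.05, 0.508 to 2.13) and Wrb 9 and 21 (0.562, 0.227 to 1.28), so all 4 intervals hold 1.

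**Figure D3:**
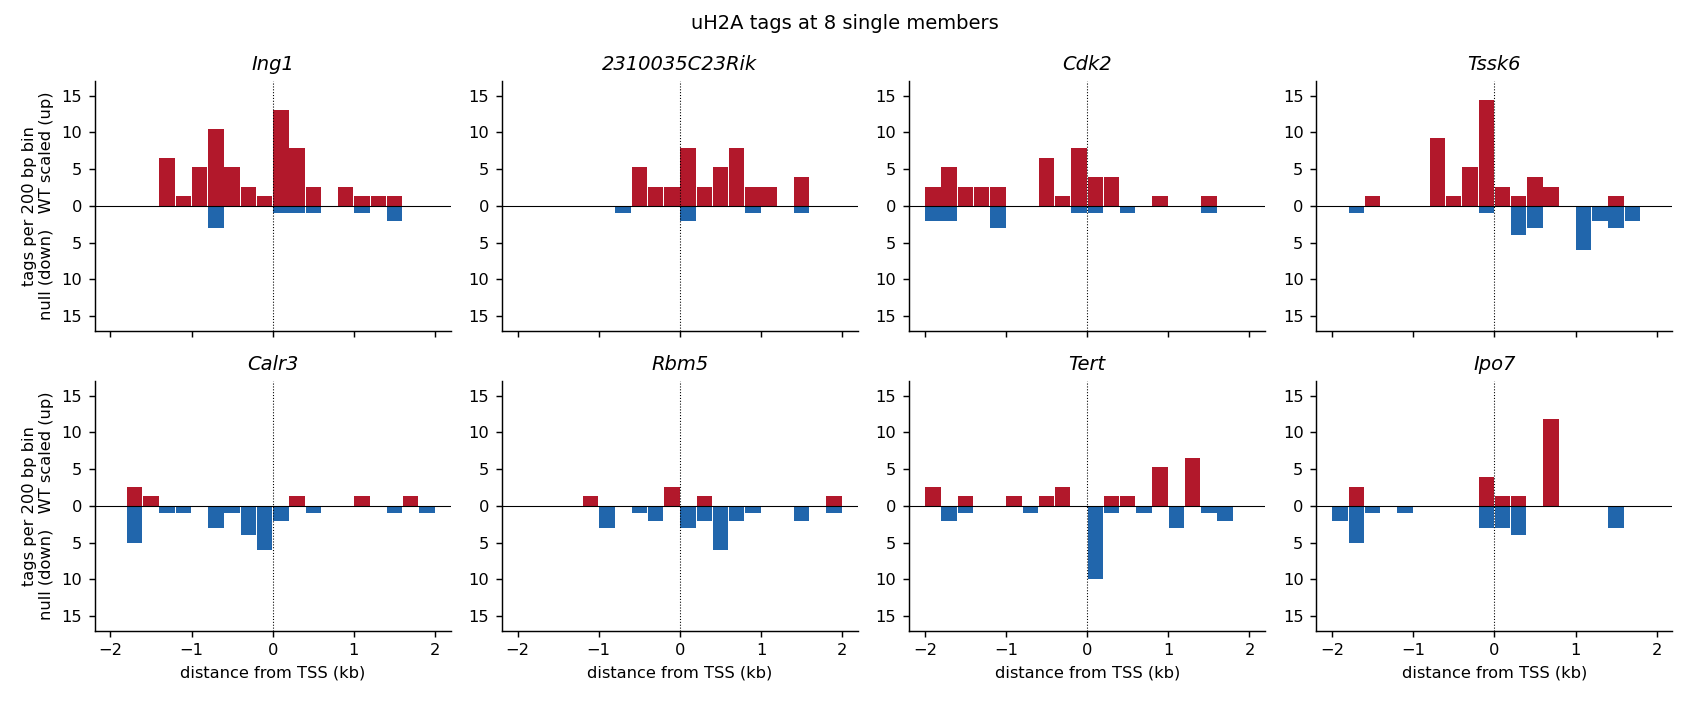
Tags per 200 bp bin (y, scaled Bmi1 WT upward in red and Bmi1 null downward in blue) from -2 to 2 kb of the TSS (x) at 8 single members. Ing1 (39 and 6 tags within 1 kb) and 2310035C23Rik (28 and 4) have tags of Bmi1 WT across the promoter, Tert has 10 Bmi1 null tags in the TSS bin, and Ipo7 has 9 Bmi1 WT tags in a single bin.

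Repeats were most frequent at Ipo7, Kctd3 and Rest among members with at least 20 tags, with 54.2%, 51.2% and 50% of their tags within 1 kb repeated. Kctd3 had 10 Bmi1 WT and 31 Bmi1 null tags, a ratio of 0.423 (0.185 to 0.886), but 8 and 12 with each position counted once, a ratio of 0.855 (0.303 to 2.27). Rest, the repressor of neuronal genes, had 11 tags in each library and 6 and 5 in the single count. Ipo7, an importin, had 14 and 10 tags, and 5 and 6 in the single count.

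Peaks were taken from the authors' list, called on Bmi1 WT tags with Bmi1 null tags as background, so a peak is no independent sign of a difference between the libraries. At 29 of the 748 members (3.88%) a peak lay within 1 kb of the TSS, against 4.15% of all promoters supplied. Their Bmi1 WT tag numbers ran from 9 to 48 with a median of 17, and the median width was 948 bp. The midpoint lay downstream of the TSS for 21 and upstream for 8. The largest was at Ing1 (mm8, chr8:11554451-11557738), with 48 Bmi1 WT and 9 Bmi1 null tags, followed by 2310035C23Rik (chr1:107490718-107492869) with 33 and 4. Next came Cttn, which encodes cortactin, with 25 and 4, the H2A variant gene H2afj with 23 and 4, and the ubiquitin ligase gene Arih2 with 22 and 7. Cybasc3 had 21 and 5, Gfpt1, the entry enzyme of hexosamine synthesis, 20 and 5, the cofilin kinase Limk1 20 and 4, the mitochondrial ribosomal protein gene Mrps15 20 and 3, and the mitochondrial carrier gene Slc25a26 20 and 4.

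Some peaks rested on few positions. The median peak held 11 distinct positions and strands of Bmi1 WT, and 8 of the 29 held fewer than 9. No peak in the list has under 9 tags. At Ipo7 the 9 tags of the peak all had 1 position and strand. Of the 29 members, 23 had an interval of the ratio within 1 kb above 1. The other 6 included Ipo7, at 1.84 (0.759 to 4.62).

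Beside other classes of the same table, the nearest in expression was the next higher group of H3K4me3-only promoters (562 genes, zinc finger names again left out). Of these, 24.1% were higher in Bmi1 WT and 9.14% in Bmi1 null by 2-fold, and with 1 tag per position 5.34% had an interval above 1, against 27.5%, 7.6% and 8.56% of the members. Other shares were closer. An interval above 1 with all tags was found at 13.7% against 16% of the members, and a listed peak at 3.91% against 3.88%. With 1 tag per position 19% against 21% were higher in Bmi1 WT by 2-fold, and 6.07% against 4.26% in Bmi1 null. That group had 1.52 scaled Bmi1 WT and 1.18 Bmi1 null tags per bin within 1 kb, against 1.53 and 1.13 in the members. The members' difference was larger by 0.0511 tags, with a 95% interval from the variation between genes of -0.0473 to 0.150, so no difference between the groups in this mean was detectable at this depth. From 0.6 to 2.0 kb the members exceeded that group by 0.0926 (-0.0108 to 0.196). After each gene's own difference beyond 3 kb was subtracted, a choice made after the values were seen, this became 0.126 (0.0162 to 0.236), and 0.0621 (0.000701 to 0.124) with 1 tag per position.

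Promoters with H3K27me3 only (636 genes) had a larger difference within 1 kb and around the promoter. Within 1 kb they had 1.67 scaled Bmi1 WT and 1.08 Bmi1 null tags per bin, and the members' difference was 0.191 lower than theirs, the signed value being -0.191 (-0.281 to -0.0998). In the TSS bin itself the classes were close, with members minus H3K27me3-only promoters at -0.0587 (-0.365 to 0.248). The gap was -0.330 (-0.429 to -0.230) from 0.6 to 2.0 kb and -0.240 (-0.302 to -0.179) beyond 3 kb, where the H3K27me3-only promoters still had a difference of 0.273 per bin. With each gene's own difference beyond 3 kb subtracted, the gap within 1 kb turned to 0.0499 (-0.0585 to 0.158), and that from 0.6 to 2.0 kb became -0.0891 (-0.203 to 0.0244), or -0.0552 (-0.123 to 0.0122) with 1 tag per position, again a choice made after the values were seen. With scaling inside the same 1 Mb the gap within 1 kb was -0.0831, with an interval that holds 0. The gaps within 1 kb and from 0.6 to 2.0 kb thus depended on how the surrounding level was treated.

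At finer resolution, the 5′ ends of tags were placed by strand in 20 bp bins, averaged over 5 neighbours. On the gene strand, Bmi1 WT was highest around 10 bp after the TSS, at 144 scaled tags per 20 bp and 1000 members, and Bmi1 null around 30 bp, at 92.5. On the opposite strand the highest levels lay around 210 bp in Bmi1 WT (147) and 170 bp in Bmi1 null (95.2). Across the autosomes the best overlap of the strands was at a distance of 144 bp in Bmi1 WT and 142 bp in Bmi1 null. The opposite-strand ends following the gene-strand ends by a distance of this order place the most frequent fragments just inside the TSS in both libraries. With 1 tag per position the highest levels lay at 30 and 210 bp in Bmi1 WT (103 and 107) and at 30 and 170 bp in Bmi1 null (75.7 and 76.2).

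**Figure D4:**
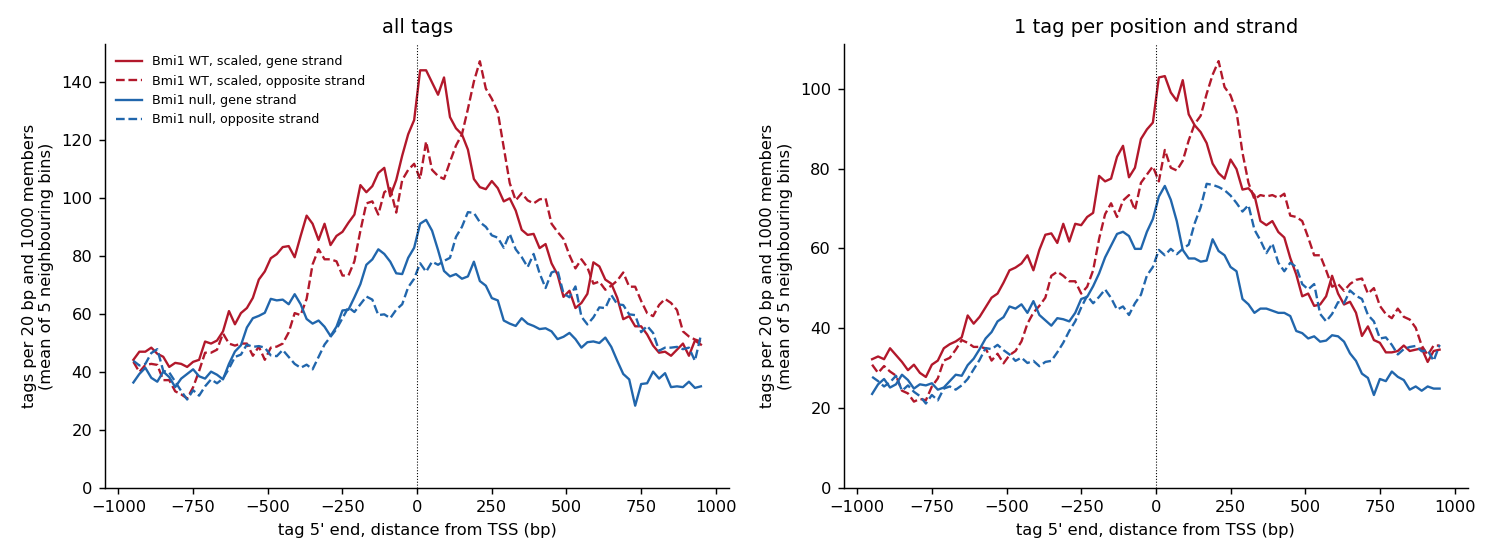
5′ ends of tags per 20 bp and 1000 members (y, mean of 5 neighbouring bins) by distance from the TSS in bp (x), on the gene strand (solid) and the opposite strand (dashed), for scaled Bmi1 WT (red) and Bmi1 null (blue), with all tags (left) and 1 tag per position and strand (right). Gene-strand ends are highest at 10 to 30 bp and opposite-strand ends at 170 to 210 bp in both libraries.

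Members were also grouped into 9 functional lists of 228 genes, read against all members, of which 192 of 697 were higher in Bmi1 WT and 53 higher in Bmi1 null by 2-fold. Of the 17 genes of Polycomb, histone and DNA modification, 5 were higher in Bmi1 WT and 1 in Bmi1 null, with a median log2 ratio of 0.57 against 0.39 in all members. Ing1 was the highest, and Smarcb1, a core subunit of the SWI/SNF remodelling complex, the lowest with 9 and 24 tags (ratio 0.492, 0.201 to 1.10). Ezh1 and Ezh2, the alternative H3K27 methyltransferases, had 6 and 4 and 5 and 13 tags, with ratios of 1.97 (0.467 to 9.48) and 0.505 (0.141 to 1.51). Their partner Jarid2 had 8 and 10 tags (1.05, 0.360 to 2.95), and Scmh1, of the complex to which Bmi1 belongs, had 14 and 12 (1.53, 0.657 to 3.62). All 4 intervals held 1.

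Of the 10 cytosolic ribosomal protein genes, 5 were higher in Bmi1 WT and 1 in Bmi1 null by 2-fold, and the median log2 ratio was 0.83. Rpl23a was the highest with 9 and 2 tags (5.90, 1.22 to 56.1), and Rpl18 the lowest with 7 and 24 (0.383, 0.139 to 0.915). Rpl22l1 had 11 and 4 tags, Rps16 9 and 3, Rps15a 9 and 5, and Rpl13a 16 and 10. Rps19 had 6 and 6, Rpl7 5 and 8, and Rps10 14 and 25. Intervals of 7 of the 10 held 1. With 1 tag per position, all 10 intervals held 1, those of Rpl23a, Rpl18 and Rpl22l1 being 0.525 to 33.7, 0.146 to 1.20 and 0.821 to 20.01. In that count 8 genes had at least 10 tags, and 3 were higher in Bmi1 WT and 1 in Bmi1 null by 2-fold.

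Of the 35 genes of cell cycle, DNA replication and repair with at least 10 tags, 7 were higher in Bmi1 WT and 2 in Bmi1 null, with a median of 0.16. Cdk2 was the highest and Cdc23 the lowest. The 35 transcription factor genes with at least 10 tags had 8 and 0 and a median of 0.51, and with 1 tag per position 4 and 1. Hif3a, a hypoxia-inducible factor subunit, was the highest with 12 and 2 tags, and the repressor gene Erf the lowest with 4 and 10. Of the 33 genes of growth factor, cytokine and morphogen signalling with that many tags, 9 and 2 were higher, with a median of 0.57. There Fgf18, a growth factor of bone and cartilage, had 21 and 5 tags (5.51, 2.02 to 18.7), and the interleukin receptor gene Il20ra had 2 and 11 (0.239, 0.0257 to 1.09).

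Counting again genes with at least 10 tags, the 24 neuronal and synaptic genes of 25 had 7 and 1, with a median of 0.49. Gpm6b, a membrane proteolipid of neurons and glia, was the highest with 12 and 3 tags and Ncam1 the lowest. The 15 of 16 genes of germ cells and meiosis had 2 and 1 and a median of 0.39, with Tssk6 and Calr3 at the ends. The 30 of 33 mitochondrial genes had 7 and 2 and a median of 0.13, from Mrps15 with 22 and 5 tags to the acylglycerol kinase gene Agk with 5 and 17. The 17 of 18 genes of chaperones and protein turnover had 3 and 1 and a median of 0.39, from the chaperonin subunit gene Cct8 with 20 and 9 to Ubqln1, a shuttle to the proteasome, with 8 and 22. With 1 tag per position the chaperone median was 0.16, below the log2 of the factor for such tags, 0.36. In that count 7 and 2 of 23 neuronal, 1 and 0 of 13 germ cell, 4 and 2 of 29 mitochondrial and 2 and 0 of 16 chaperone genes passed 2-fold. Members on both sides of 0 were present in all 9 lists, and no list was tested against the rest. The medians of the mitochondrial and the cell cycle lists lay below 0.39, the log2 of the scaling factor, and those of the germ cell and the chaperone lists equalled it, so the side of 0 of these 4 medians rests on the scaling.

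**Figure D5:**
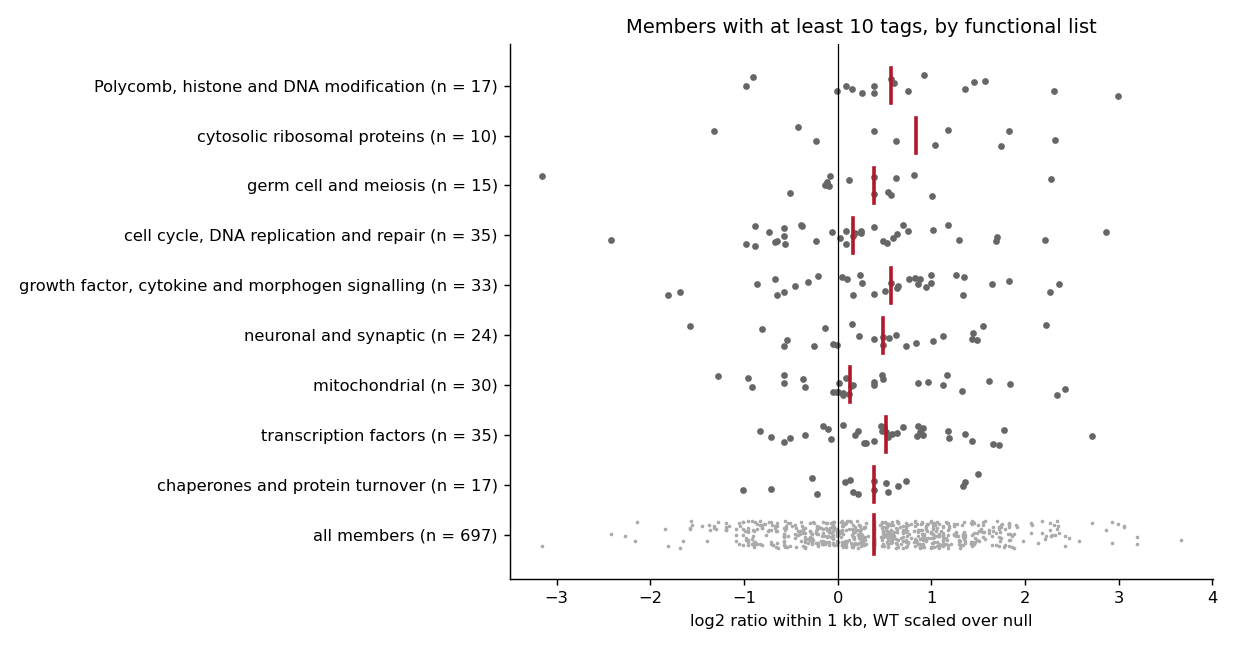
log2 ratio of scaled Bmi1 WT over Bmi1 null tags within 1 kb (x) of each member with at least 10 tags, by functional list (y), with the median of each list as a red bar. Medians run from 0.13 (mitochondrial) to 0.83 (cytosolic ribosomal proteins), against 0.39 for all 697 members, and points on both sides of 0 are present in every list.

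Within the members, the table's finer division into 10 expression groups put 300 genes in group 8, 235 in group 9 and 213 in group 10, the lowest. Their mean differences within 1 kb were 0.382 ± 0.0484, 0.419 ± 0.0575 and 0.400 ± 0.0639 tags per bin, so that no order with expression was seen at the promoter. From 0.6 to 2.0 kb the values were 0.224 ± 0.0540, 0.173 ± 0.0568 and 0.0800 ± 0.0523. With 1 tag per position they were 0.124 ± 0.0331, 0.0805 ± 0.0319 and 0.0526 ± 0.0294. In that window the value was lower toward the lowest expression, an order that was not tested. The 20 members just inside the expression limit had 1.52 scaled Bmi1 WT and 1.105 Bmi1 null tags per bin within 1 kb, a difference of 0.416 ± 0.202. The 20 genes just outside it had 2.26 and 1.375, a difference of 0.888 ± 0.519, or 0.547 ± 0.276 with 1 tag per position. From 0.6 to 2.0 kb the values were -0.122 ± 0.167 inside and 0.857 ± 0.581 outside, so the s.e.m. is large beside each value outside the limit.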

How the data were processed

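uH2A ChIP-Seq tags of 1 Bmi1 WT and 1 Bmi1 null library were used. The authors sequenced 25 bp tags on the Illumina 1G, mapped them to mm8 with the Solexa Analysis Pipeline, discarded those without a unique place, and deposited a line for each tag with its position, strand and up to 2 mismatches, without normalization. They also deposited a list of 16406 peaks from a modified TIROE, run with Bmi1 WT as input and Bmi1 null as background, with the count of Bmi1 WT tags and an enrichment p-value for each. The p-value of the authors served only as a stricter threshold in an alternative.

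Here tags were counted at the lower end of the alignment in 200 bp bins from -5 to 5 kb of each TSS on the gene strand, with Python 3.11.15, numpy 2.4.6, pandas 2.3.3 and scipy 1.17.1, and drawn with matplotlib 3.10.9. Bmi1 WT was scaled by library totals, and 0.5 tags were added before taking logs. Ratios were given for single promoters with exact intervals at 95%, and calls of 2-fold used at least 10 tags. No test between genotypes was made. The counting code was tested on simulated data. Members and lists were chosen with earlier results of these data known.

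Named genes were the 8 with the highest lower and the 8 with the lowest upper bound of the ratio, the 5 with most Bmi1 WT and the 5 with most Bmi1 null tags in the TSS bin, the 3 with the largest share of repeats among those with at least 20 tags, up to 10 with a listed peak, the highest and lowest of each list, and Ezh1, Ezh2, Jarid2, Scmh1 and the ribosomal protein genes. Alternatives changed repeats, tag placement, scaling, windows, thresholds and members. Positions of start sites came from the study's gene table, and no mm8 genome sequence was used here. The Bmi1 locus was not examined, so the genotypes rest on the labels.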

Additional observations from a re-analysis of the deposited data

Results flagged for a closer look

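Chromosome Y holds no member and enters no comparison above. A signal there differed between the libraries: 3483 tags in Bmi1 WT and 2159 in Bmi1 null. Scaled by totals the ratio was 2.12 (2.005 to 2.23, exact 95% interval), with 2415 and 1758 distinct positions and strands and a ratio of 1.76 between those. The ratios of single autosomes lay between 0.892 and 1.145, that of chromosome X was 0.912, and that of the mitochondrial genome was 0.504 (0.431 to 0.589) from 226 and 588 tags. The cause, and any relation to the members, was not tested.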

How the results depend on the processing

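Across 97 combinations of result and alternative setting, 73 stayed within the 95% interval of the reported value, or within 1.5 times the reported count or dispersion, and 23 moved further. A single value whose reported interval excluded 0 changed sign. With 1 tag per position and strand, the mean differences were 0.525 in the TSS bin, 0.260 within 1 kb and 0.0902 from 0.6 to 2.0 kb, 28 members were higher in Bmi1 null by 2-fold, intervals lay above 1 at 64 and below 1 at 3 members, the dispersion was 1.24, and the difference from H3K27me3-only genes was -0.0984. Fewer tags are counted by construction. With negative bins set to 0, the mean differences were 1.56, 1.01, 0.708 and, beyond 3 kb, 0.583, so this setting gives a positive value where the libraries are level. Scaling within the same 1 Mb gave 0.292 within 1 kb, 0.0892 from 0.6 to 2.0 kb and -0.0455 beyond 3 kb, where the reported interval held 0 and this one lies below it, 29 members with an interval below 1, and -0.0831 against H3K27me3-only genes, an interval that holds 0. Chosen after seeing the data, scaling by the members' own tags beyond 3 kb gave 0.335 within 1 kb, and subtracting each gene's own difference beyond 3 kb turned the difference from H3K27me3-only genes to 0.0499. A window of 500 bp gave a median log2 ratio of 0.55. At least 20 tags left 124 members higher in Bmi1 WT and 25 higher in Bmi1 null. A p-value of 1e-07 or less left 18 members with a peak, and any overlap within 5 kb gave 76. Where no value or construction shows it, the cause was not tested. A median of 11 tags per promoter and library limits every statement on a single gene.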

Other observations

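The 35 members on chromosome X had 0.858 scaled Bmi1 WT and 0.560 Bmi1 null tags per bin within 1 kb, against 1.565 and 1.16 for the 713 members on autosomes. Their mean difference was 0.298 ± 0.0983 tags, against 0.404 ± 0.0334, at a lower level in both libraries, and their scaled ratio was 1.532. The scaled ratio of all tags varied between autosomes, from 0.892 on chromosome 16 to 1.145 on chromosome 4. At the members within 1 kb it ran from 1.149 on chromosome 10 to 1.535 on chromosome 8, and so lay above 1 on each of the 19 autosomes.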
